A study of Mus musculus with 6 samples.

Results

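The 5S ribosomal RNA genes of the mouse, whose symbols start with n-R5s, were examined in the RNA of small extracellular vesicles (sEV), membrane-bound particles that cells release. All genes of type rRNA in GENCODE M21 with such a symbol were taken, and all 180 of them were among the 53379 Ensembl genes listed for each library. The vesicles came from wild-type (WT) embryonic cortical neurons in culture. NorEV are vesicles of control neurons, which the series text calls normoxic (3 libraries), and HypEV are vesicles of neurons whose treatment is labelled OGD/R and which the series text calls hypoxic (3 libraries). The labels do not spell out OGD/R and do not say whether the libraries of a group came from separate cultures, and p-values therefore describe the spread among these 6 libraries, which may be technical.

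5S rRNA is the smallest RNA of the large ribosomal subunit. RNA polymerase III makes it from a promoter that lies inside the gene, with a box A, an intermediate element and a box C to which the factor TFIIIA binds. The active genes stand in a tandem array, and mammalian genomes hold many further, mostly degenerate copies. Free 5S rRNA is carried into the ribosome with the proteins RPL5 and RPL11.

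The tandem array and the scattered copies differ in sequence. In GRCm38 the array held 41 of the members on chromosome 8, from 123538786 to 123622046, all on the minus strand with a median spacing of 1703 bases. Of these, 25 had one and the same sequence of 119 bases. The other 139 members were dispersed over 21 chromosomes and had a median identity of 75.6% to that sequence, with 96.6% as the highest value and 54.6% as the lowest of any member. In all, 36 members shared their exact sequence with at least 1 other member.

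The sequences of 4 of the 5 members with the highest mean values are shown, since they are diverged copies that nevertheless carried many of the reads. They are from the GENCODE M21 transcripts (GRCm38) and written 5′ to 3′. n-R5s62 lies on chromosome 12 from 82150468 to 82150563 on the plus strand, n-R5s36 on chromosome 16 from 48410306 to 48410424 on the minus strand and n-R5s217 on chromosome 1 from 138878262 to 138878377 on the minus strand. The place of n-R5s155, on the plus strand, is given with its values. Capitals mark bases that differ from the commonest array sequence or are added to it in an end-to-end alignment, and missing bases are not shown.
n-R5s155: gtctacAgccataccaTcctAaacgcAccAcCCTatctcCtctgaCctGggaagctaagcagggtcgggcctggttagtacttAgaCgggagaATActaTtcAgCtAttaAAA
n-R5s62: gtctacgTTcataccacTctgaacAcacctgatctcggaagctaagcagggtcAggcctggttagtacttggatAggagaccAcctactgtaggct
n-R5s36: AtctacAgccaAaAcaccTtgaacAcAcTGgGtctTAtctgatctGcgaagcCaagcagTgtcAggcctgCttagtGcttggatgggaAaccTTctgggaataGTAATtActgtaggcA
n-R5s217: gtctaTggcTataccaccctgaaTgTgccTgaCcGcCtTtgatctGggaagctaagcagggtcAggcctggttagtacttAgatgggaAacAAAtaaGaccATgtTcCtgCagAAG

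These 4 were shortened or diverged, with an identity to the array of 73.8% in n-R5s155, 74.8% in n-R5s62 and 75.8% in both n-R5s36 and n-R5s217. The other member among the 5 highest, n-R5s194, was 95.8% identical. In n-R5s155 an unbroken run of 34 bases was the same as in the array. Only 3 of the 102 members with more than 20 edits had a run that long, and their median was 15 bases.

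Bases of the internal promoter, as the array has them, were searched on both strands, with positions counted from 1 at the 5′ end of the array sequence. Those of box A (positions 50 to 61) were in all 41 array copies, in 54 of the dispersed members and in 0.988% of 3137 other genes of 100 to 140 nucleotides. Those of the intermediate element (positions 67 to 72) were in all 41 array copies, in 82 dispersed members and in 7.46% of those other genes. Those of box C (positions 80 to 91) were in 33 array copies, in 38 dispersed members and in 0.542% of the other genes. The searched stretches do not overlap each other. The sequence of n-R5s155 held box A and the intermediate element in these letters and not box C, whereas n-R5s194 held all of them.

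Values are in FPKM, the fragments of a gene per kilobase of its length, scaled to the size of its library. Steps between the values gave whole reads for all 180 members, out of 1092724 to 1494499 fragments counted on genes in NorEV against 1320916 to 2141611 in HypEV. A single read on a gene of 119 nucleotides was worth 3.92 to 7.69 FPKM. A member at 0 held no counted read, but its expected count could still be up to 3 reads, which is 0.000140 to 0.000275% of a library. The entry Gm23935 and its near-identical copies are short genes annotated as microRNAs. They held 4.34, 0.561 and 0.303% of the reads in NorEV 1, 2 and 3 against 49.6, 1.97 and 24.5% in HypEV 1, 2 and 3. The largest shares were in HypEV 1, HypEV 3 and NorEV 1, with NorEV 1 nearer to HypEV 2 than to HypEV 3. As FPKM divides by the total, reads on these entries lower the value of every other gene. The 10 neuronal markers, Tubb3 and Map2 among them, were all above 0, with a summed level of 84.7 to 116 FPKM in NorEV against 68.9 to 103 in HypEV. Markers of other cells were also present: the 7 astrocyte markers summed to 68.2 to 92.2 FPKM in NorEV against 39.4 to 86.8 in HypEV, and the 6 microglial markers to 48.1 to 75.0 in NorEV against 50.001 to 84.0 in HypEV. In bulk libraries of this kind, fewer vesicles of one source and less RNA per vesicle cannot be told apart.

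Reads on 5S genes in the vesicles were on dispersed copies and hardly on the array. Over the 6 libraries 2654 reads were counted on the members, 2600 of them (98.0%) on dispersed copies and 54 (2.03%) on the array. In the array 33 of 41 copies were at 0 in all libraries, against 19 of 139 dispersed copies and 28.8% of the other genes of 100 to 140 nucleotides. The 25 copies with the commonest sequence held 6 reads in all, and the 36 members that share their exact sequence held 20. How the authors treated reads that fit several copies is not given in the sources used here, so a value of 0 on one of these copies is not evidence of its absence. The part of that treatment in the split was not tested.

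**Figure D1:**
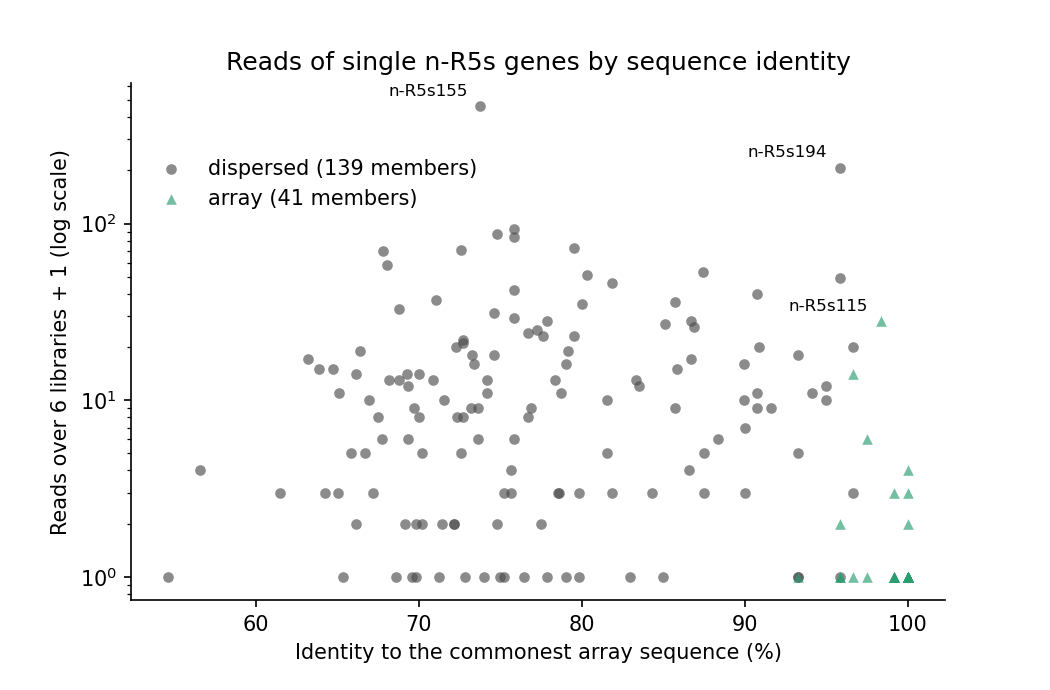
Reads over the 6 libraries plus 1 (vertical, log scale) against identity in percent to the commonest array sequence (horizontal), 1 point per member: triangles are the 41 array copies and circles the 139 dispersed ones. Most triangles lie at 0 reads, drawn at 1, while n-R5s155 with 460 reads and n-R5s194 with 206 lie highest.

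Inside the array, the copy with most reads was one with a sequence of its own. n-R5s115 (ENSMUSG00000095915, chromosome 8, 123564286 to 123564404) held 5, 0 and 0 reads in NorEV 1, 2 and 3 against 8, 1 and 13 in HypEV 1, 2 and 3. n-R5s101, which shares its sequence with 1 other member, held 2, 3 and 2 reads in NorEV against 3, 0 and 3 in HypEV. No other array copy held more than 5 reads.

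**Figure D2:**
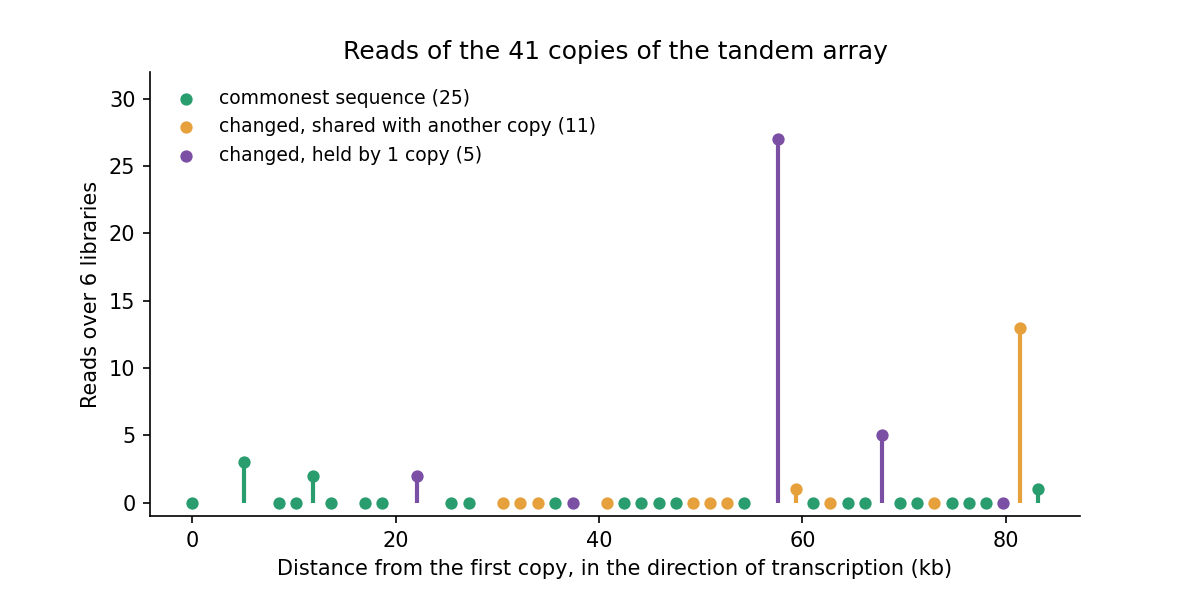
Reads over the 6 libraries (vertical) of the 41 array copies by distance from the first copy in the direction of transcription, in kb (horizontal); colours give whether a copy has the commonest sequence, a changed sequence shared with another member, or one held by it alone. The tallest point is n-R5s115 with 27 reads, followed by n-R5s101 with 13, and 33 copies lie at 0.

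Most members rested on few reads. Of the 128 members with a read, 67 had at most 10 over all libraries, and the 10 with most reads held 47.0% of the total. The 18 members above 0 in every library held 1454 reads (54.8%), with means of 18.1 to 485 FPKM, and none of them was an array copy. By place, dispersed members outside other genes had a median of 10 reads (62 members), those in an intron on the same strand 7.5 (28 members) and those in an intron on the opposite strand 8 (37 members). Of 6 members that lie in an exon of a gene transcribed in the same direction, 5 held no read. Of 6 that lie in an exon on the opposite strand, 3 held no read. RefSeq lists 69 of the 180 members by symbol, 51 as rRNA and 18 as pseudogenes. The former, which include most of the array copies, held 382 reads with 33 members at 0, and n-R5s194 held 206 of these reads. The latter held 262 reads with 1 member at 0. The 111 members without an entry held 2010 reads (75.7%) with 18 members at 0.

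The summed value of all 5S genes did not separate the groups. It was 3407, 2164 and 2180.3 FPKM in NorEV 1, 2 and 3 against 2189, 2163 and 4077 FPKM in HypEV 1, 2 and 3. NorEV 1 and HypEV 3 were high and the other 4 libraries lay between 2163 and 2189. The means were 2584 ± 713 and 2809.7 ± 1098 FPKM (SD, n = 3), a difference smaller than these SDs (p = 0.7, two-sided exact permutation test). With 3 libraries against 3 the smallest p of this test is 0.1. Without HypEV 3 the difference of HypEV minus NorEV turned from 226 to -408 FPKM, and without n-R5s155 alone it was -55.6 FPKM.

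As shares of the reads counted on genes, the members took 0.0388% (95% Wilson interval 0.0353 to 0.0427), 0.0247% (0.0222 to 0.0274) and 0.0248% (0.0224 to 0.0274) in NorEV 1, 2 and 3. In HypEV 1, 2 and 3 they took 0.0252% (0.0231 to 0.0274), 0.0246% (0.0221 to 0.0272) and 0.0467% (0.0432 to 0.0505). The intervals cover counting error only. On totals that omit the Gm23935 family, the shares were 0.0406, 0.0248 and 0.0248% in NorEV against 0.0499, 0.0251 and 0.0618% in HypEV. On that scale HypEV 1 joined NorEV 1 and HypEV 3 as high, the groups still overlapped, and the exact permutation p was 0.2 (two-sided).

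**Figure D3:**
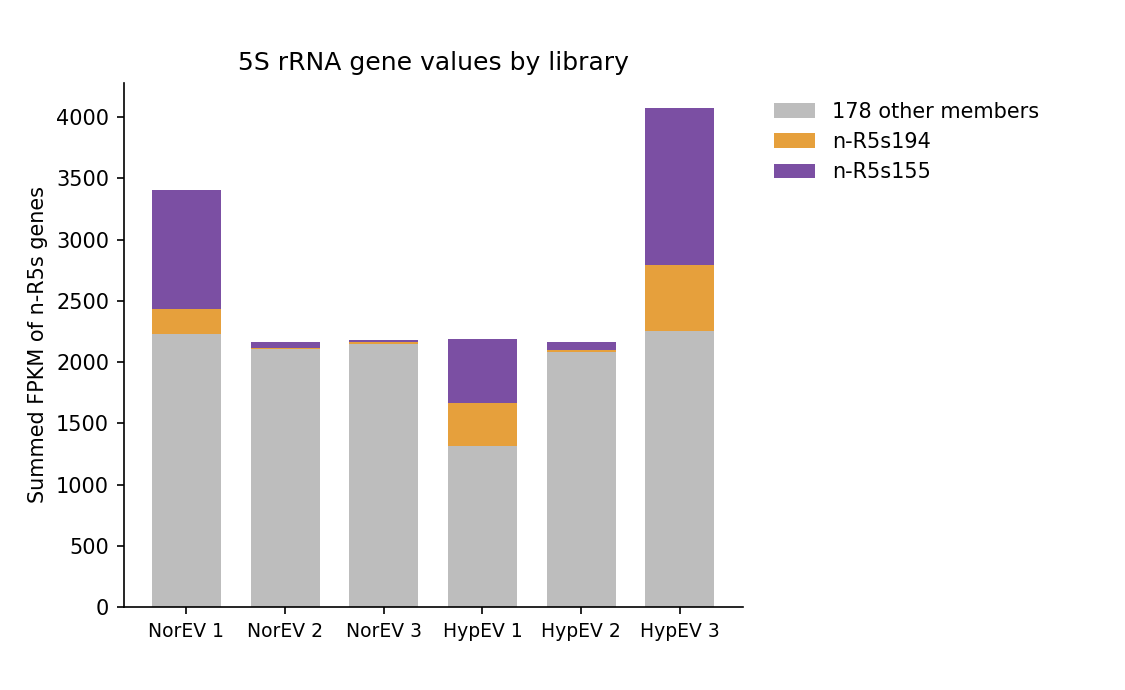
Summed FPKM of the 180 members (vertical, from 0) in each of the 6 libraries, split into n-R5s155, n-R5s194 and the other 178 members. NorEV 1 (3407) and HypEV 3 (4077) are the tallest bars, and n-R5s155 and n-R5s194 are wide bands in NorEV 1, HypEV 1 and HypEV 3 only.

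n-R5s155 and n-R5s194, both outside any other gene, held 25.1% of all 5S reads. They moved between libraries far more than the sum of the other 178 members, in which swings of single members can even out. Other single members also varied widely, such as n-R5s217 with 0 to 287 FPKM. n-R5s155 (ENSMUSG00000084480) lies on chromosome 7 from 90293734 to 90293846 and had 972, 43.8 and 17.8 FPKM in NorEV 1, 2 and 3 against 525, 67.3 and 1286 FPKM in HypEV 1, 2 and 3. It was high in NorEV 1, HypEV 1 and HypEV 3, so the groups overlapped. Between group means of 344 ± 543 and 626 ± 616 FPKM (SD, n = 3) the log2 fold change was 1.94 ± 1.53 SE (limma, adjusted p = 0.797).

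n-R5s194 (ENSMUSG00000094830), on chromosome 3 from 4338998 to 4339116, had 208, 11.9 and 11.2 FPKM in NorEV against 349, 11.6 and 534 FPKM in HypEV. The same 3 libraries were high as for n-R5s155. The log2 fold change was 2.06 ± 1.54 SE (limma, adjusted p = 0.793). Together they took 34.7, 2.58 and 1.35% of the 5S reads in NorEV 1, 2 and 3 against 40.1, 3.66 and 44.7% in HypEV 1, 2 and 3 (exact permutation test, two-sided, p = 0.2). The libraries where they were high are the 3 with most reads on the Gm23935 family, whose part in these values was not tested.

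The other 178 members together held 277, 340 and 365 reads in NorEV 1, 2 and 3 against 323, 342 and 341 in HypEV 1, 2 and 3. They summed to 2228, 2108 and 2151 FPKM in NorEV against 1315, 2084 and 2257 in HypEV, where HypEV 1 was low. The group means were 2162 ± 60.6 and 1885 ± 501 FPKM (SD, n = 3; exact permutation test, two-sided, p = 0.6). On totals that omit the Gm23935 family HypEV 1 stood at 2608 FPKM, HypEV 3 at 2987 and the other 4 libraries between 2119.8 and 2329, and the difference turned from lower to higher in HypEV (p = 0.3, same exact test).

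**Figure D4:**
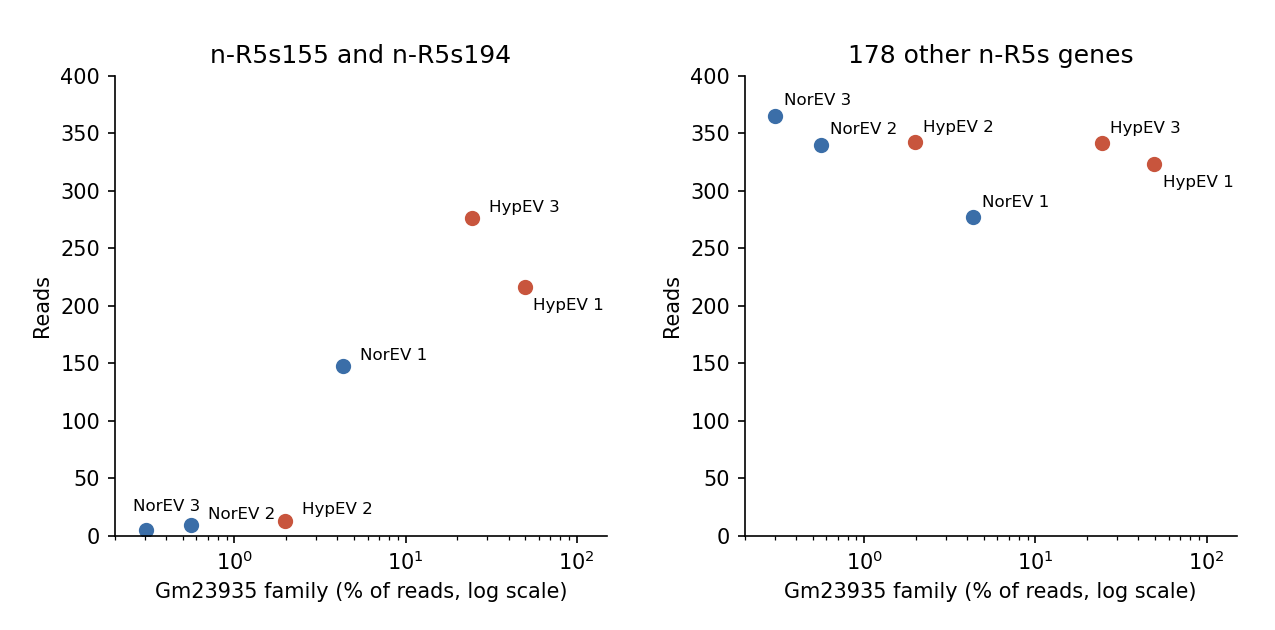
Reads of n-R5s155 and n-R5s194 together (left) and of the other 178 members (right) against the share of reads on the Gm23935 family in percent (log scale), 1 point per library, NorEV in blue and HypEV in red. On the left, NorEV 1, HypEV 1 and HypEV 3 lie between 147 and 276 reads and the other 3 libraries between 5 and 13, while on the right all 6 lie between 277 and 365.

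Summed over the members close to the array sequence, reads were highest in the same 3 libraries, and rested on few copies. Summed reads of the most diverged members were also highest in these 3 with n-R5s155 counted, and were not high in all 3 without it. The limits of these classes were chosen after the values were seen. The 45 members within 5 edits of the array sequence held 45, 8 and 13 reads in NorEV 1, 2 and 3 against 128, 15 and 120 in HypEV 1, 2 and 3. Of these members 33 held no read, and n-R5s194 held 206 of the 329 reads. The 25 copies of the commonest sequence held 1, 0 and 2 reads in NorEV against 0, 1 and 2 in HypEV. Without n-R5s194 the counts of the class were 18, 6 and 11 and then 39, 13 and 36. In FPKM the class summed to 156 ± 165 in NorEV against 451 ± 341 in HypEV (SD, n = 3; exact permutation test, two-sided, p = 0.2), with NorEV 1 above HypEV 2. The 33 members with 6 to 20 edits held 63, 49 and 67 reads in NorEV against 109, 65 and 56 in HypEV. As shares of all counted reads these were 0.00577, 0.00347 and 0.00448% against 0.00509, 0.00450 and 0.00424%. NorEV 1 and HypEV 1 were highest there, and HypEV 3 lay below NorEV 3. Totals that omit the Gm23935 family raise HypEV 1 and HypEV 3 most. As shares of these totals the reads were 0.00603, 0.00349 and 0.00450% against 0.0101, 0.00459 and 0.00561%. Only on that scale were HypEV 1, NorEV 1 and HypEV 3 the 3 highest libraries. All 102 members with more than 20 edits held 316, 292 and 290 reads in NorEV against 302, 275 and 441 in HypEV. In reads NorEV 1, HypEV 1 and HypEV 3 were highest, while HypEV 1 had the lowest share of all counted reads (0.0141%). Without n-R5s155 these members held 196, 285 and 287 reads in NorEV against 175, 264 and 249 in HypEV, where NorEV 1 and HypEV 1 were lowest. Their shares of the same totals were 0.0187, 0.0203 and 0.0193% against 0.0162, 0.0186 and 0.0250%, with HypEV 3 highest and HypEV 1 lowest.

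The number of copies above 0 was lower in HypEV on average, by more than the SD of either group, and did not pass its test. It was 68, 84 and 86 of 180 in NorEV 1, 2 and 3 against 52, 67 and 69 in HypEV 1, 2 and 3, with means of 79.3 ± 9.87 and 62.7 ± 9.29 (SD, n = 3). The groups overlapped in NorEV 1, and the difference was -16.7 (exact permutation test, two-sided, p = 0.2). Fragments outside the Gm23935 family numbered 1045344, 1405452 and 1489975 in NorEV against 1079637, 1417156 and 997817 in HypEV. The part of this depth in the number of copies above 0 was not tested. The count of all genes above 0 was 37304, 42465 and 43282 in NorEV against 34756, 41211 and 36559 in HypEV. The share of the other genes of 100 to 140 nucleotides was 29.9, 42.0 and 47.5% in NorEV against 22.0, 35.9 and 26.7% in HypEV. In both, as in the members, HypEV 1 was lowest. Unlike in the members, HypEV 3 lay below HypEV 2 and NorEV 1. With at least 2 reads required, the members numbered 52, 57 and 57 in NorEV against 40, 54 and 55 in HypEV.

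Single 5S genes were tested together with all genes whose mean over the libraries reached 1 FPKM (44125), 125 members among them (118 dispersed and 7 in the array). None of the 125 passed an adjusted p of 0.05 in limma, where 0.0159% of all tested genes did. At an unadjusted p under 0.05 there were 17 members (13.6%, against 6.76% of all tested genes), 5 higher in HypEV (4%, against 0.635% of all tested genes) and 12 lower (9.6%, against 6.13%). A member listed at 0 in one group enters the fit only through the other, so these counts are a description only. limma-voom on the recovered reads also called none of the 66 members it tested, where 0.513% of 38226 genes were called. The median log2 fold change was -0.54 over the members and -0.44 over all tested genes, with 48 members higher and 77 lower. With each library centred on its median 60 were higher and 65 lower.

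Among members with a higher value in HypEV, n-R5s151 rested on most reads of those whose groups did not overlap. n-R5s151 (ENSMUSG00000065893, chromosome 7, 16471813 to 16471931) lies in an intron of Npas1 on the opposite strand and is 95.8% identical to the array sequence. It had 15.4, 11.9 and 22.5 FPKM in NorEV against 78.5, 23.3 and 102 FPKM in HypEV, on 2, 2 and 4 and on 20, 4 and 16 reads. HypEV 2 lay just above NorEV 3. The log2 fold change was 1.77 ± 0.58 SE (limma, adjusted p = 0.682).

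The other 4 members with the smallest p in that direction were n-R5s10, n-R5s88, n-R5s156 and n-R5s27. n-R5s10, on the X chromosome, held 24 of its 26 reads in HypEV 1 and 1 each in HypEV 2 and 3. n-R5s88, in an intron of Ephb1 on the opposite strand, held 10, 2 and 2 reads in HypEV and 0, 0 and 1 in NorEV. n-R5s156 held 6 reads each in HypEV 1 and HypEV 3 and none elsewhere. n-R5s27, in an intron of Runx2, had 0, 23.8 and 11.2 FPKM in NorEV against 23.5, 29.1 and 70.0 in HypEV, with an overlap between NorEV 2 and HypEV 1. Adjusted p-values were 0.572 to 0.720 in limma for these 4. n-R5s10 and n-R5s156 held no read in NorEV and enter the fit only through HypEV, so their p-values are a description only. Without HypEV 2, where 0.163% of all tested genes were called, limma called n-R5s156 higher (adjusted p = 0.0418) and n-R5s165, outside other genes, lower (adjusted p = 0.0409). The latter, named after its value was seen, had 3, 3 and 6 reads in NorEV against 0, 8 and 0 in HypEV. In both members HypEV 2 was the HypEV library that differed from the others. Without it each member enters the fit only through the group where it was high, so these calls are a description only.

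Among members with a lower value in HypEV, n-R5s68 had the smallest p of all. It held no read in HypEV and enters the fit only through NorEV, so that p is a description only. n-R5s68 (ENSMUSG00000084588, chromosome 11, 27085126 to 27085207), a shortened copy of 82 nucleotides, had 55.8, 8.63 and 65.3 FPKM in NorEV, on 5, 1 and 8 reads, against 0 in each of the 3 HypEV libraries (limma, adjusted p = 0.131). n-R5s30 (ENSMUSG00000084573, chromosome 16, 5324036 to 5324157) was read in every library. It had 82.5, 40.6 and 71.3 FPKM in NorEV against 11.5, 22.7 and 18.6 in HypEV, without overlap (log2 fold change -1.81 ± 0.44 SE, limma, adjusted p = 0.543).

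n-R5s5, n-R5s52 and n-R5s220 had the next smallest p in this direction. n-R5s5 held 2, 2 and 5 reads in NorEV against 0, 1 and 0 in HypEV. n-R5s52 held 3, 2 and 1 reads in NorEV against 0, 1 and 0 in HypEV. n-R5s220 held 8, 4 and 6 reads in NorEV against 0, 0 and 6 in HypEV. Their adjusted p-values in limma were 0.572, 0.665 and 0.720.

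Groups did not overlap in 3 members with higher values (2.4% of those tested, against 1.1% of all tested genes) and in 5 with lower values (4%, against 10.8%). The higher ones were n-R5s151, n-R5s10 and n-R5s88. The lower ones were n-R5s68, n-R5s30, n-R5s5, n-R5s42 (70.4, 54.4 and 38.6 FPKM in NorEV, 0, 33.3 and 21.8 in HypEV) and n-R5s77 (30.8, 29.7 and 39.4 FPKM in NorEV, 27.5, 0 and 25.4 in HypEV). In both n-R5s42 and n-R5s77 1 HypEV library was at 0.

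The remaining abundant members, n-R5s217 apart, varied within the groups about as much as between them. n-R5s62 had 143, 59.0 and 55.8 FPKM in NorEV against 146, 129.7 and 55.2 in HypEV, high in 1 library of the former and 2 of the latter. n-R5s36, in an intron of Gm5485 on the same strand, had 76.9, 59.5 and 140.6 FPKM in NorEV against 62.8, 81.4 and 108 in HypEV. n-R5s217 was lower in HypEV on average, with 23.7, 287 and 144 FPKM in NorEV against 0, 29.8 and 19.6 in HypEV. NorEV 2 and 3 were high and NorEV 1 was within the range of HypEV. The log2 fold change was -3.56 ± 1.34 SE (limma, unadjusted p = 0.0279, adjusted p = 0.720).

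n-R5s176 had 58.8, 58.4 and 92.1 FPKM in NorEV against 29.99, 101.5 and 125 in HypEV. n-R5s48, in an intron of Enox1, had 83.2, 90.05 and 54.7 FPKM in NorEV against 34.0, 62.9 and 124 in HypEV. In both of these HypEV 1 was the lowest library and HypEV 3 the highest. n-R5s191, in an intron of Agbl4 on the opposite strand, had 63.1, 54.9 and 23.1 FPKM in NorEV against 32.2, 125 and 130.5 in HypEV. n-R5s32 had 0, 41.2 and 90.9 FPKM in NorEV against 9.07, 73.9 and 176 in HypEV, and n-R5s60 had 46.1, 29.7 and 73.1 and then 15.7, 69.8 and 76.3. None of these members passed in limma.

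The other 8 members above 0 in every library were less abundant and gave no common order of the libraries. n-R5s69 had 7.69, 83.2 and 73.1 FPKM in NorEV against 23.5, 69.8 and 25.4 in HypEV, n-R5s204 69.2, 53.5 and 28.1 against 15.7, 52.3 and 19.1, and n-R5s200 81.0, 6.26 and 35.5 against 20.7, 42.8 and 46.9. n-R5s173 had 107.7, 17.8 and 33.7 FPKM in NorEV against 3.92, 23.3 and 44.5 in HypEV, and n-R5s56 69.7, 6.74 and 12.7 against 40.02, 52.7 and 43.3. NorEV 1 was the highest library in n-R5s204, n-R5s200, n-R5s173 and n-R5s56. n-R5s47, n-R5s33 and n-R5s50 each had their highest value in HypEV 2 (69.8, 40.7 and 37.4 FPKM). Values spread over the groups in all 8, and none passed in limma.

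**Figure D5:**
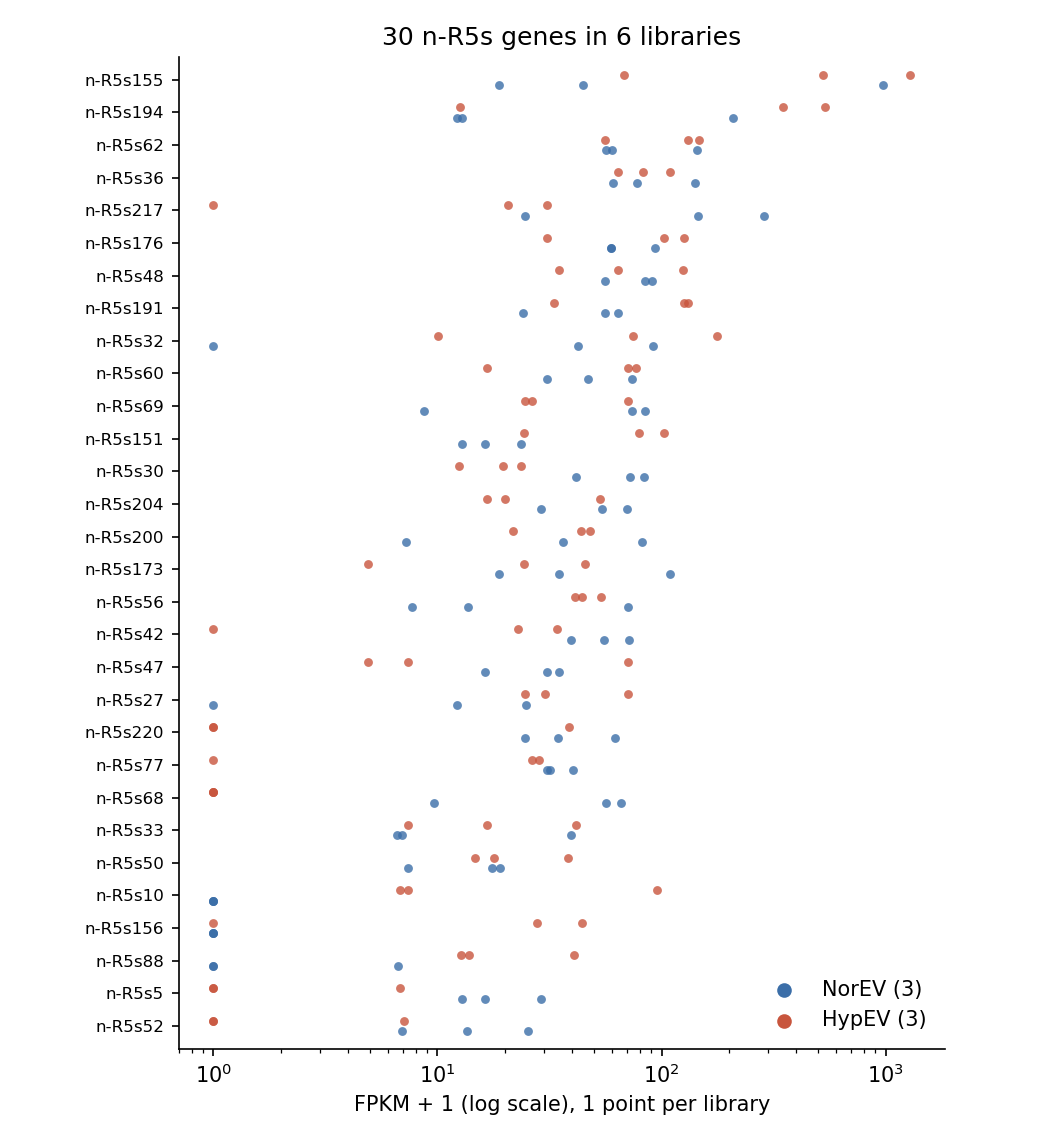
FPKM plus 1 (horizontal, log scale) of the 30 members chosen by the rule for named genes, 1 point per library, NorEV in blue and HypEV in red, ordered by mean from n-R5s155 at the top. In n-R5s155 and n-R5s194 the points fall apart into 3 high and 3 low libraries that mix the groups, and in most other members the colours overlap.

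The genes listed for the 5S pathway, from transcription to RNA binding and surveillance, were at low to moderate levels. None of the 45 tested passed in either direction in limma or limma-voom. At an unadjusted p under 0.05 limma gave 1 gene, Polr2f (2.22%, against 6.76% of all tested genes). Of them 8 were higher and 37 lower in HypEV, with a median log2 fold change of -0.38 against -0.44 over all tested genes, of which 74.9% were lower. With each library centred on its median 27 were higher and 18 lower. Groups did not overlap in 7 (15.6%, against 11.9% of all tested genes), 2 higher and 5 lower. Of the promoter-binding factors TFIIIA and TFIIIC 1 was higher and 6 lower, which turned to 6 higher and 1 lower after centring. Gtf3c3, a TFIIIC subunit, had 7.19, 4.79 and 3.65 FPKM in NorEV against 5.20, 10.1 and 13.2 in HypEV. Gtf3c2, another, had 2.72, 7.35 and 7.52 and then 2.57, 5.87 and 2.41.

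Of TFIIIB, which recruits the polymerase, all 3 members had lower values as deposited, and 1 was higher and 2 lower after centring. Bdp1 had 25.3, 24.6 and 19.3 FPKM in NorEV against 8.75, 15.6 and 14.3 in HypEV without overlap (log2 fold change -0.82 ± 0.40 SE, limma, adjusted p = 0.721). Tbp, which also serves the other nuclear polymerases, had 4.51, 4.09 and 4.29 FPKM in NorEV against 1.17, 5.35 and 2.84 in HypEV.

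Of the 18 subunits of RNA polymerase III 5 were higher and 13 lower, and 9 each after centring. Polr2f, a subunit shared with polymerases I and II, had 38.8, 18.2 and 14.8 FPKM in NorEV against 0 in each of the 3 HypEV libraries (limma, adjusted p = 0.0874). It enters the fit only through NorEV, so its p is a description only. Polr1d, shared with polymerase I, had 24.4, 19.9 and 16.4 FPKM in NorEV against 10.03, 15.4 and 2.24 in HypEV (adjusted p = 0.720, limma). Maf1, the repressor of the polymerase, had 1.58, 4.87 and 8.06 FPKM in NorEV against 1.61, 8.33 and 1.74 in HypEV.

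The 9 genes listed for the 5S particle and its assembly, Mdm2 counted among them, all had lower values as deposited. Their median log2 fold change of -0.40 lay near the -0.44 of all tested genes. After centring 5 were higher and 4 lower. Rrs1, which helps to place the particle in the ribosome precursor, had 20.1, 11.4 and 16.99 FPKM in NorEV against 4.56, 7.43 and 14.05 in HypEV, and its partner Rpf2 had 5.43, 13.7 and 12.6 and then 3.28, 4.48 and 8.58. Among 5 genes listed for RNA binding and surveillance 2 were higher and 3 lower, and all 5 were higher after centring. They include the exonuclease genes Isg20 (0.842, 1.302 and 20.9 FPKM in NorEV, 6.01, 11.5 and 6.96 in HypEV) and Rexo1 (3.31, 4.04 and 4.21 in NorEV, 5.78, 4.35 and 7.07 in HypEV). Of the proteins known to carry 5S rRNA to mitochondria, Tst had 0, 7.75 and 5.49 FPKM in NorEV against 0.426, 1.89 and 1.38 in HypEV, and Mrpl18 had 4.50, 6.96 and 9.33 and then 1.53, 4.54 and 4.35.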

How the data were processed

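RNA of vesicles was sequenced in 6 libraries, 3 per group. Trizol was used for the RNA and a long-RNA kit of Epibiotek for the libraries, per the labels' protocols. The authors deposited 1 table of FPKM per library, whose names mention HTSeq. The aligner, build, annotation and treatment of reads with several matches are not given in the sources used here. Of the identifiers 53274 were found in GENCODE M21. Values were turned into reads with the longest transcript's length, and 96.0% of those above 0 came out whole within 0.01 reads.

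Values were tested as log2(FPKM + 1), a scale that understates changes of low genes, in R 4.3.3 with limma 3.58.1 (two-sided, moderated with a mean trend) over genes whose mean reached 1 FPKM, with Benjamini-Hochberg adjustment over all of them. Sums and counts per library were compared with exact permutation tests over 20 assignments. Sequences were aligned end to end with edlib in Python 3.11.15, and edits count substituted, added and missing bases. The Gm23935 family holds 6 entries over 90% alike over 80% of their length.

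Named members are the 10 highest means, those above 0 in all libraries, the 5 smallest p per direction and those with at least 10 reads and no overlap of groups (30 in all). In the pathway the 2 smallest p per group of the list were named. A planned ranking of genes by likeness to the 5S sum was not used. The members, the lists and the tests were chosen with earlier results of these data known. Some sequences are not reported here.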

Additional observations from a re-analysis of the deposited data

How the results depend on the processing

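The count of 5S genes past the threshold was 0 in limma and stayed 0 with a pseudocount of 0.1, without a filter, with a mean of at least 5 FPKM, after centring or quantile normalization, without a trend, in limma-voom and on totals that omit the Gm23935 family. With 1 library left out it was 0 to 2. The 2 came without HypEV 2, after which each was at 0 throughout 1 group. The pathway count was 0 under each of these. Over all tested genes the median log2 fold change was -0.44, and it was 0.01 after centring, 0.03 after quantile normalization and -0.12 on totals that omit the family. Labels number the libraries 1 to 3 in both groups, but nothing says that a number marks a shared culture: deviations of same-numbered libraries correlated at 0.04, 0.10 and -0.06, and 3 of 6 libraries correlated best with their own number. With a replicate block the count of 5S genes was 0, and the mean difference within numbers was 226 FPKM (exact sign-flip test, p = 1).

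The summed difference of HypEV minus NorEV, 226 FPKM or 0.00273% of reads, turned to -55.6 FPKM or -0.000456% without n-R5s155. It was -277 FPKM or -0.00309% without n-R5s155 and n-R5s194, and -8.95 FPKM or -0.000169% without the 3 libraries with most Gm23935 reads, both chosen after seeing the data. With 1 library left out it was -408 to 638 FPKM, or -0.00456 to 0.00742%, with the lowest value without HypEV 3. On totals that omit the Gm23935 family it was 1341 FPKM or 0.0155% (exact permutation p = 0.2 for both). The number of members above 0 was lower in HypEV in every alternative, with a difference of -22.3 to -5.67. No alternative evened out the number of reads per library. Of the 30 named members, 8 that are given by their library values alone (n-R5s32, n-R5s33, n-R5s36, n-R5s48, n-R5s60, n-R5s69, n-R5s176 and n-R5s200) changed sign under at least 1 alternative. No other did. A member whose sequence occurs in others was told apart only against the other members, since a genome sequence was not used here, and a test in edgeR was not run.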

Other observations

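The 174 other genes of type rRNA, mostly short entries with clone or predicted names, can be set beside the 5S genes. Of these, 41 (23.6%) were at 0 in all libraries, and their median was 6 reads. The entry with most reads, CT010467.1, which is 1849 nucleotides long, had 86.1, 118 and 212 FPKM in NorEV 1, 2 and 3 against 68.2, 150.4 and 94.99 in HypEV 1, 2 and 3. The rest together held 305, 342 and 411 reads in NorEV against 369, 381 and 260 in HypEV. As shares of totals that omit the Gm23935 family these were 0.0292, 0.0243 and 0.0276% in NorEV against 0.0342, 0.0269 and 0.0261% in HypEV. HypEV 1 and NorEV 1 were highest on that scale, and HypEV 3, where n-R5s155 had most reads, was not among the 3 highest.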
